A study of Mus musculus with 8 samples.

Results

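The genes described here are 41 genes of glucose breakdown, chosen by name: the glucose transporter gene Slc2a1, the enzymes of glycolysis, the lactate enzymes and transporters, the regulator Hif1a, pyruvate dehydrogenase, and enzymes of the tricarboxylic acid (TCA) cycle with their cytosolic counterparts. All 41 were among the 15521 genes in the table, and all 41 passed the filter on low counts that left 11621 genes. They were measured by bulk RNA-seq in mouse alveolar macrophages, which clear particles and microbes from the air sacs of the lung. The cells were lavaged from lungs, left to adhere for 2 h, and kept in medium containing 10 ng/ml of the growth factor GM-CSF. The 8 libraries form 4 groups of 2: DMSO vehicle, MSDC at 10 µM, Poly(I:C) at 5 µg/mL with vehicle, and Poly(I:C) at 5 µg/mL with MSDC at 10 µM. Vehicle or compound was added 2 h before the stimulus, which then acted for 24 h by the sample labels and overnight by the series description. All groups share the adherence step and GM-CSF. The labels used here name no mouse strain, age or genotype, and they do not say whether the 2 libraries of a group came from separate animals or cultures, so the p-values measure the spread between libraries, which may be technical.

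Glycolysis splits glucose into pyruvate in the cytosol. Pyruvate is then either reduced to lactate by lactate dehydrogenase and exported, or carried into mitochondria, where pyruvate dehydrogenase turns it into acetyl-CoA for the TCA cycle. The mitochondrial pyruvate carrier stands between these fates, and MSDC is a name prefix of compounds known to bind it, although the labels do not say which compound was used. Poly(I:C) is a synthetic double-stranded RNA that imitates viral RNA, and macrophages exposed to microbial products are known in general for raising glycolysis and for remodelling the TCA cycle. Alveolar macrophages live in a glucose-poor, lipid-rich airspace.

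Libraries held 28762425 to 29493223 estimated counts, and replicate libraries differed by more than sampling noise (chi-square per degree of freedom between 4.29 and 14.8, highest for vehicle). Among the 41 genes the median difference between replicates was 0.053 to 0.0879 on the log2 scale, against 0.0884 to 0.132 over all genes tested. Of 11 alveolar macrophage markers 10 were in the table, with a summed level of 13800 to 14200 CPM (counts scaled to library totals, which were adjusted by TMM) with vehicle, 12200 to 12300 with MSDC, 13100 to 13300 with Poly(I:C) and 12200 to 12400 with both. In both MSDC comparisons 5 of the 10 rose and 3 fell. Over all genes tested 11.1% rose and 12.4% fell with MSDC alone, and 12.5 and 13.6% with Poly(I:C) present. With MSDC alone, Marco went from 316 and 400.1 to 1019 and 1054 CPM and Fabp4 from 224 and 255 to 618 and 659 CPM. Chil3 went in the same comparison from 6364 and 6600.0 to 3687 and 3646 CPM. The B cell and T cell lists each summed to at most 0.103 CPM. The neutrophil list summed to 4.69 to 8.45 CPM, and the fibroblast, club cell and red cell lists each to at most 0.598 CPM. Only 3 of 5 T cell, 2 of 5 neutrophil, 1 of 3 red cell and 2 of 3 endothelium markers were in the table. Low sums of these lists therefore do not show that such cells were absent. The alveolar epithelium list, nearly all of it Cdh1 and with the surfactant gene Sftpa1 at 0 in all libraries, summed to 71.1 to 74.9 CPM with vehicle, 54.5 to 61.9 with MSDC, 50.1 to 51.0 with Poly(I:C) and 46.0 to 46.4 with both. The endothelium list summed to 1.98 to 3.53 CPM without MSDC and 0.71 to 1.15 with it. An 8-gene interferon list summed to 10.0 and 23.0 CPM in the vehicle libraries, 3.92 and 10.1 with MSDC, 1810 and 1890 with Poly(I:C) and 1050 and 1120 with Poly(I:C) and MSDC, and a 3-gene monocyte list, most of it Ccr2, lay between 3.83 and 4.54 CPM without MSDC and between 0.676 and 1.70 CPM with it. Their part in the results below was not tested. In bulk RNA, fewer expressing cells and less RNA per cell cannot be told apart.

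Levels of different genes can be compared per length, in the authors' TPM. Together the 41 genes took 1.54 to 2.03% of all TPM in a library, most of it in glycolytic enzymes. Gapdh, which oxidises glyceraldehyde 3-phosphate, was the most abundant at 6145 to 8162 TPM, followed by Aldoa (aldolase A) at 1967 to 2801, Eno1 (enolase) at 1336 to 1697, Ldha (the muscle-type subunit of lactate dehydrogenase) at 781 to 1278, Pgam1 (phosphoglycerate mutase) at 832 to 1216 and Pkm (pyruvate kinase) at 802 to 912. The ranges of Ldha and Pgam1 overlap, as do those of Pgam1 and Pkm, so these neighbours are not ordered. The genes of the early, committing steps stood far lower, with Slc2a1 at 50.7 to 87.5, Pfkp at 51.2 to 105, Pfkl at 56.1 to 88.6, Hk3 at 38.8 to 65.2 and Hk2 at 15.6 to 25.6 TPM. Among mitochondrial enzymes, Mdh2 (malate dehydrogenase) led with 382 to 463 TPM, and Cs (citrate synthase, at the entry of the cycle) stood at 230.5 to 264. The muscle phosphofructokinase gene Pfkm, at 0.550 to 1.28 TPM, and Ldhb, at 0.5 to 2.24 TPM, were the lowest, with 24 to 57 and 9 to 43 counts per library, whereas each of the other 39 genes had at least 614 counts in every library. Values of Gpi1, Gapdh, Eno1 and Ogdh were in part not whole numbers, so reads shared with similar sequences may have been divided among genes there, and the other 37 genes had whole values throughout.

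**Figure D1:**
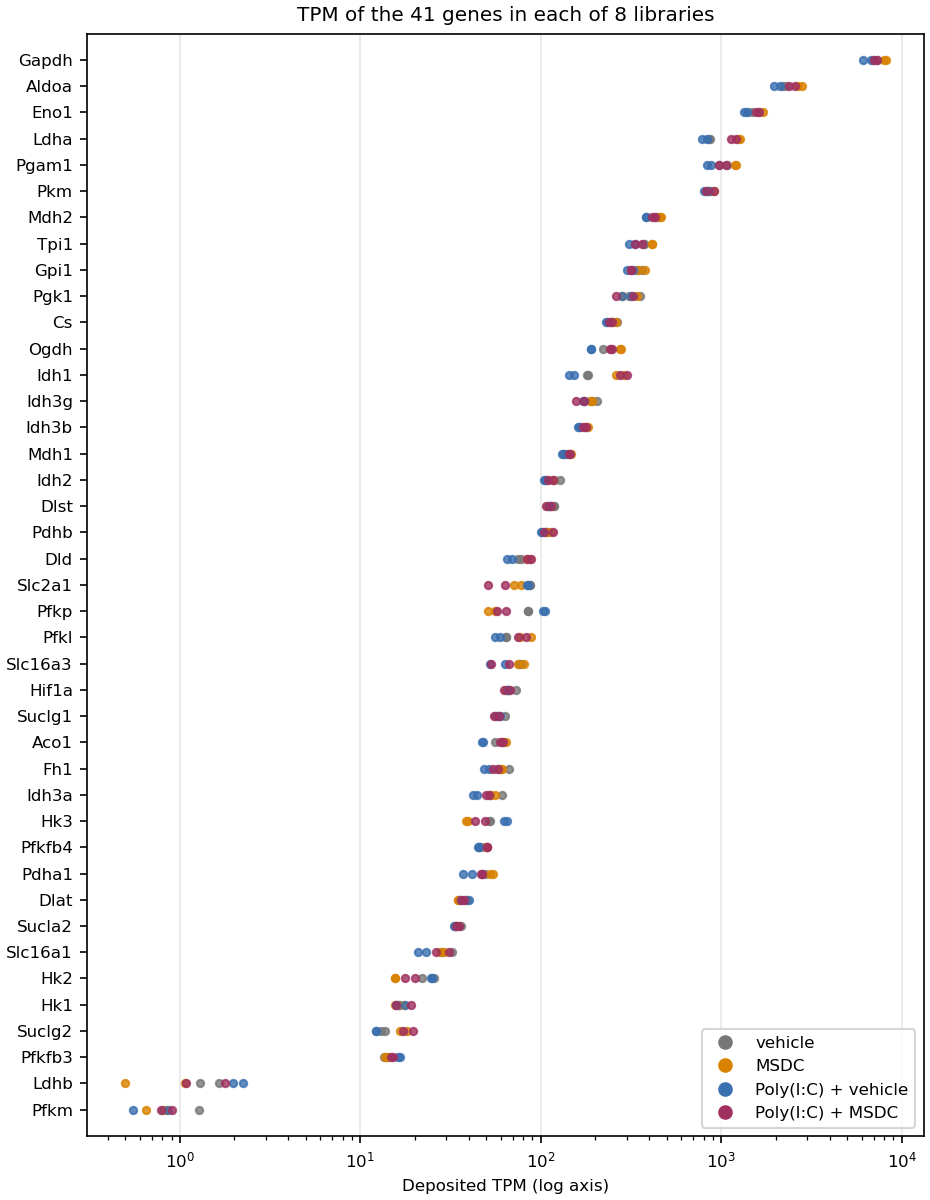
Deposited TPM (x axis, log scale) of the 41 genes (y axis, ordered by mean) in each of the 8 libraries, coloured by group. Gapdh reached 6145 to 8162 TPM and Pfkm and Ldhb lay at the bottom, and for most genes the spread over the 4 groups is small beside the distance between genes.

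The comparison of MSDC with vehicle in unstimulated cells asked how the compound changed these genes. MSDC lowered Hk2, Hk3 and Pfkp of the early steps of glycolysis. It raised Pfkl, Aldoa, Gapdh, Pgam1, Eno1 and Ldha, and in the mitochondrial and cytosolic set Idh1, Ogdh, Suclg2 and Dld. Other genes of glycolysis, among them Slc2a1, Hk1, Gpi1, Tpi1, Pgk1 and Pkm, were not called. Of 41 genes 10 rose and 3 fell, which is 24.4 and 7.32% of them, against 11.1 and 12.4% of all genes tested (edgeR's quasi-likelihood test, with a threshold of 0.05 on p adjusted by Benjamini-Hochberg over all genes). None of the 13 reached a 2-fold change, nor did any called gene of the 41 in the other comparisons, and the median log2 fold change of the 41 genes was 0.05, against 0.00 over all genes. With Poly(I:C) present, MSDC against vehicle gave 12 higher and 4 lower, 29.3 and 9.76%, against 12.5 and 13.6% of all genes, with a median of 0.08 against 0.00. The 2 comparisons share no library. Changes below are log2 fold changes, without Poly(I:C) first and with it second. Of the 10 genes that rose without Poly(I:C) 9 also rose with it (90% of the first list and 75% of the second), and the 3 that fell also fell with it (100 and 75%). Over all genes tested, 77.4 and 69.1% of the higher lists and 77.0 and 69.9% of the lower lists were shared.

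Glucose enters through GLUT1, the product of Slc2a1, which stood at 111 and 115 CPM with vehicle, 101 and 94.7 with MSDC, 115 and 113 with Poly(I:C) and vehicle, and 67.2 and 83.3 with Poly(I:C) and MSDC. The libraries with both agents were the lowest, and they also differed from each other. The fall with MSDC was 0.60 on the log2 scale (SE 0.09, adjusted p = 6.07e-05) in stimulated cells, while without Poly(I:C) the value was -0.20, SE 0.09, adjusted p = 0.108, which did not pass the test.

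Hexokinases trap glucose by phosphorylating it. Hk2, the inducible isoenzyme bound to mitochondria, stood at 70.7 and 62.9 CPM with vehicle, 44.4 and 45.1 with MSDC, 72.2 and 72.7 with Poly(I:C) and vehicle, and 51.1 and 56.9 with Poly(I:C) and MSDC. Every MSDC library was below every library without MSDC. Hk2 fell by 0.58 on the log2 scale (SE 0.08, adjusted p = 3.93e-05) without Poly(I:C) and by 0.42 on the log2 scale (SE 0.08, adjusted p = 0.000653) with it. Hk3, the isoenzyme typical of myeloid cells, stood at 82.7 and 85.4 CPM with vehicle, 63.7 and 65.9 with MSDC, 109 and 105 with Poly(I:C) and vehicle, and 72.5 and 79.8 with Poly(I:C) and MSDC, and here too no MSDC library reached the level of a library without it. Its falls were 0.38 (SE 0.07) and 0.49 (SE 0.07) on the log2 scale in the same order. Hk1, the constitutive isoenzyme, ranged over 31.0 to 37.2 CPM and had values of 0.03, SE 0.10 and 0.01, SE 0.10 that did not pass the test. Per length, Hk1 made up 17.5 and 18.2% of hexokinase TPM in the vehicle libraries and 24.2 and 22.0% in the MSDC libraries, and 14.9 and 16.8% against 20.4 and 21.6% with Poly(I:C).

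Phosphofructokinase commits sugar to glycolysis, and its subunit genes moved in opposite directions. The platelet-type gene Pfkp stood at 132 and 133 CPM with vehicle, 87.6 and 81.5 with MSDC, 169.6 and 165 with Poly(I:C) and vehicle, and 91.4 and 102 with Poly(I:C) and MSDC. It fell with MSDC by 0.65 on the log2 scale (SE 0.07, adjusted p = 3.47e-06) and, with Poly(I:C), by 0.79 on the log2 scale (SE 0.07, adjusted p = 3.4e-07), and the libraries with and without MSDC did not overlap. The liver-type gene Pfkl stood at 103 and 106 CPM with vehicle, 146 and 131 with MSDC, 102 and 94.7 with Poly(I:C) and vehicle, and 124 and 137 with Poly(I:C) and MSDC, with all MSDC libraries above all others. It rose by 0.41, SE 0.07, adjusted p = 0.000687 and by 0.42, SE 0.07, adjusted p = 0.000545. By share, Pfkl made up 42.6 and 42.6% of phosphofructokinase TPM with vehicle and 61.2 and 59.7% with MSDC, and 36.0 and 35.2% against 56.3 and 56.0% in stimulated cells. The shares are a description and were not tested. Pfkm values were -0.48, SE 0.37 and 0.24, SE 0.38, too imprecise to read. Pfkfb3 and Pfkfb4, whose enzymes set the level of fructose 2,6-bisphosphate, the activator of phosphofructokinase, did not pass the test in either state (log2 fold changes of 0.05 and -0.16 for Pfkfb3 and 0.15 and 0.14 for Pfkfb4).

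**Figure D2:**
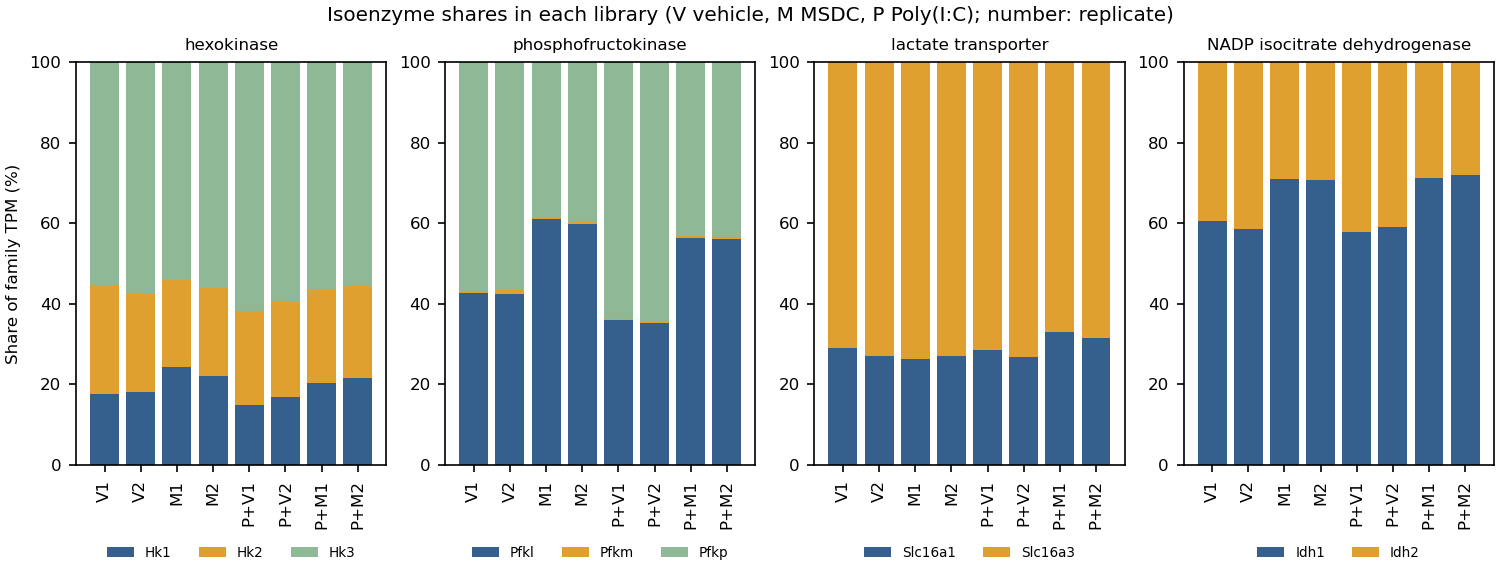
Share (%) of each isoenzyme gene in the summed TPM of its family, 1 bar per library. Pfkl took 35.2 to 42.6% of phosphofructokinase TPM in libraries without MSDC and 56.0 to 61.2% in those with it, and Idh1 took 57.9 to 60.6% and 70.7 to 71.9% of the NADP isocitrate dehydrogenase TPM.

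Promoter sequences are printed for 4 genes, chosen after their values were seen: Pfkl and Pfkp, the phosphofructokinase pair that moved in opposite directions, and Ldha and Idh1, which rose with MSDC in both states. They are RefSeq windows of GRCm38.p6, from 250 bases before to 50 after an annotated start, written 5′ to 3′ along the gene, and Ldha and Idh1 have other annotated starts that are not shown. Capitals mark the core motif of the HIF-1 regulator, ACGTG or GCGTG, on either strand, and matches on opposite strands may overlap. Positions are those of the leftmost base of a match, counted from the start. The windows lie at chr10:78009758-78010057, minus strand (Pfkl), chr13:6648722-6649021, minus strand (Pfkp), chr7:46845554-46845853, plus strand (Ldha) and chr1:65186430-65186729, minus strand (Idh1).
Pfkl: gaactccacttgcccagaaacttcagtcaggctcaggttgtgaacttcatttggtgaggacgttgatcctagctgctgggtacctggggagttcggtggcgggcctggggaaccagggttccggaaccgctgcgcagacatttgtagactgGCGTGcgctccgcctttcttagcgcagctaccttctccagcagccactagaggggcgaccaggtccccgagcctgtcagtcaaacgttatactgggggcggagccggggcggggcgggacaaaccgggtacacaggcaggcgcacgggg
Pfkp: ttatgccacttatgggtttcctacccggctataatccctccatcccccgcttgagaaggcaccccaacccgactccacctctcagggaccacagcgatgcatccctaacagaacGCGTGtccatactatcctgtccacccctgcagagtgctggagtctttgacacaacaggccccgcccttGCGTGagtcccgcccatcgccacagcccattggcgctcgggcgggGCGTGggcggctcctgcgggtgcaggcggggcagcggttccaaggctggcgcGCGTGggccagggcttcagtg
Ldha: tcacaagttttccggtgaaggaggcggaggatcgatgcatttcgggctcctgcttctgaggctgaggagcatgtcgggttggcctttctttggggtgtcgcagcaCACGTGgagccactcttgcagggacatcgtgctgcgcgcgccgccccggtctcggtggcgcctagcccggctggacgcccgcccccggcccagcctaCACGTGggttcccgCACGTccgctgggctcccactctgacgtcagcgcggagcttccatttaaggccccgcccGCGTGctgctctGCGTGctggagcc
Idh1: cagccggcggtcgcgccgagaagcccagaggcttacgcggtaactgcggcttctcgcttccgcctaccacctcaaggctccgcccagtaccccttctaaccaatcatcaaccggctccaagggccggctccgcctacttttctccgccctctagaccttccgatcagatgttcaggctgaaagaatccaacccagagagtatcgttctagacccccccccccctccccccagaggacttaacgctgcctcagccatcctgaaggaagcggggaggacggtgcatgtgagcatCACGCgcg
Pfkp, which fell, held 4 matches and Pfkl, which rose, held 1, at -99 from the start. Ldha held 7 in this window, counting both strands of overlapping matches, and Idh1 held 1, at position 43 after the start. The motif was common: 57.8% of 15474 promoters of genes in the table held it. By gene, 30 of the 40 members with a promoter in the table (75%) had it in at least 1 window, against 63.1% of 12217 genes, and 7 of 9 genes that rose and 3 of 3 that fell with MSDC in both states had it. An exact direct repeat of the half-site AGGTCA with 1 base between, a form bound by PPAR receptors, was in 0 of the 57 member promoters and in 7 of all 15474 (0.0452%). Exact repeats were too rare for their absence to say whether these genes hold PPAR sites, and inexact repeats were not searched. Idh3a had no entry.

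In the rest of upper glycolysis, Aldoa rose by 0.31, SE 0.06, adjusted p = 0.00113 with MSDC alone and 0.25, SE 0.06, adjusted p = 0.0054 with Poly(I:C), whereas Gpi1 (glucose 6-phosphate isomerase) had values of 0.06 and -0.01 and Tpi1 (triosephosphate isomerase) 0.18 and 0.09, none of them past the threshold. In lower glycolysis, Pgam1 rose by 0.26 (SE 0.06) and 0.22 (SE 0.06) and Eno1 by 0.23 (SE 0.06) and 0.18 (SE 0.06) in the same order. Gapdh stood at 4644 and 5009 CPM with vehicle, 5609 and 5599 with MSDC, 4393 and 4783 with Poly(I:C) and vehicle, and 5060.2 and 4852 with Poly(I:C) and MSDC. It rose without Poly(I:C) (0.22, SE 0.06, adjusted p = 0.0102), and with Poly(I:C) the groups were closer (0.11, SE 0.06, adjusted p = 0.172). Pgk1 (phosphoglycerate kinase) and Pkm did not pass the test in either state, with values between -0.07 and 0.09. These rises were small. Without Poly(I:C), the calls of Pgam1 and Eno1 were lost without MSDC replicate 1, and that of Gapdh without vehicle replicate 1 or either MSDC library. With Poly(I:C), those of Aldoa and Pgam1 were lost when either replicate 1 of Poly(I:C) with vehicle or replicate 2 of Poly(I:C) with MSDC was left out, and that of Eno1 without MSDC replicate 2 or any of the 4 stimulated libraries.

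Ldha, whose enzyme turns pyruvate into lactate, stood at 671 and 709.7 CPM with vehicle, 1037 and 1015 with MSDC, 655 and 699 with Poly(I:C) and vehicle, and 933 and 984 with Poly(I:C) and MSDC. The 4 MSDC libraries lay above the 4 others, with a gap much wider than the distance between replicates. Its rise was 0.57, SE 0.06, adjusted p = 1.98e-06 without Poly(I:C) and 0.50, SE 0.06, adjusted p = 7.44e-06 with it. Ldha made up at least 99.7% of lactate dehydrogenase TPM in every library, and the heart-type gene Ldhb had values of -1.02, SE 0.46 and -0.65, SE 0.40 on few counts. Lactate leaves the cell through monocarboxylate transporters. Slc16a3 (MCT4, the exporter of glycolytic cells) stood at 94.5 and 93.1 CPM with vehicle, 99.8 and 91.8 with MSDC, 66.6 and 79.7 with Poly(I:C) and vehicle, and 66.2 and 82.4 with Poly(I:C) and MSDC, with MSDC values of 0.03, SE 0.10 and 0.02, SE 0.10 that did not pass the test. Slc16a1 (MCT1) stood at 71.2 and 64.6 CPM with vehicle, 66.0 and 63.7 with MSDC, 49.2 and 54.3 with Poly(I:C) and vehicle, and 60.7 and 70.3 with Poly(I:C) and MSDC. It was not called with MSDC alone (-0.07, SE 0.08) and rose with MSDC in stimulated cells (0.34, SE 0.09, adjusted p = 0.00739), a call lost when either replicate 1 of Poly(I:C) with vehicle or replicate 2 of Poly(I:C) with MSDC was left out.

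Hif1a, the oxygen-regulated subunit of a transcription factor that drives many glycolytic genes, stood at 157 and 146 CPM with vehicle, 148 and 144 with MSDC, 150.2 and 150.4 with Poly(I:C) and vehicle, and 140.2 and 149 with Poly(I:C) and MSDC. Its mRNA showed no called change in the 4 comparisons, with log2 fold changes between -0.01 and -0.06, and the activity of HIF-1, which is set largely by protein stability, was not measured.

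Pyruvate dehydrogenase joins glycolysis to the TCA cycle. Pdha1, its catalytic alpha subunit, stood at 66.8 and 71.5 CPM with vehicle, 79.3 and 76.8 with MSDC, 62.9 and 55.7 with Poly(I:C) and vehicle, and 68.6 and 69.3 with Poly(I:C) and MSDC. It passed the test with MSDC in stimulated cells (0.22, SE 0.08, adjusted p = 0.0442), a call lost with DESeq2 and when replicate 2 of Poly(I:C) with vehicle or any of the 4 MSDC libraries was left out, and not in unstimulated cells (0.17, SE 0.07). Dld, the dihydrolipoamide dehydrogenase shared by pyruvate and oxoglutarate dehydrogenases, stood at 87.1 and 86.2 CPM with vehicle, 100.1 and 98.3 with MSDC, 83.1 and 76.8 with Poly(I:C) and vehicle, and 97.8 and 102 with Poly(I:C) and MSDC. It rose by 0.20, SE 0.07, adjusted p = 0.0439 and 0.32, SE 0.07, adjusted p = 0.00183; the call with MSDC alone was lost without any 1 of the 8 libraries. Pdhb and Dlat, the beta subunit and the acetyltransferase core, had values between -0.13 and 0.10 that did not pass the test.

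Among the genes of the TCA set the largest change was that of Idh1, a cytosolic enzyme that makes NADPH from isocitrate. It stood at 205 and 207 CPM with vehicle, 331 and 303 with MSDC, 169 and 180.4 with Poly(I:C) and vehicle, and 317 and 345 with Poly(I:C) and MSDC. The 4 MSDC libraries were far above the 4 libraries without it. Idh1 rose by 0.62, SE 0.07, adjusted p = 3.26e-06 with MSDC alone and by 0.92, SE 0.07, adjusted p = 4.01e-08 in stimulated cells. Its mitochondrial counterpart Idh2 had values of -0.10, SE 0.07 and 0.08, SE 0.07, which did not pass the test, and the share of Idh1 in their summed TPM was 60.6 and 58.5% with vehicle and 71.1 and 70.7% with MSDC. Idh3a, Idh3b and Idh3g, the subunits of the NAD-dependent enzyme of the cycle, had values between -0.09 and 0.20, with 0 of 3 called in either state.

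Along the cycle, changes fell on a few enzymes. Ogdh, the first subunit of oxoglutarate dehydrogenase, stood at 527 and 489.6 CPM with vehicle, 618 and 617 with MSDC, 431 and 433 with Poly(I:C) and vehicle, and 544 and 549.6 with Poly(I:C) and MSDC, and within each stimulation state both MSDC libraries were higher. It rose by 0.28, SE 0.06, adjusted p = 0.00158 and 0.34, SE 0.06, adjusted p = 0.000266. Suclg2, the subunit that makes succinyl-CoA synthetase produce GTP, stood at 23.3 and 22.2 CPM with vehicle, 30.4 and 28.3 with MSDC, 21.5 and 21.6 with Poly(I:C) and vehicle, and 29.95 and 34.3 with Poly(I:C) and MSDC, the MSDC libraries being the 4 highest. Its rises were 0.37, SE 0.09, adjusted p = 0.00768 and 0.58, SE 0.09, adjusted p = 0.000192. Sucla2, the ATP-forming subunit, had values of -0.05, SE 0.08 and 0.03, SE 0.08, and the shared subunit Suclg1 -0.09, SE 0.08 and -0.06, SE 0.08, none called. The call of Suclg2 with MSDC alone was lost without MSDC replicate 1. Aco1, a cytosolic aconitase that also serves as an iron sensor, rose in stimulated cells (0.31, SE 0.06, adjusted p = 0.0016) and was not called in unstimulated cells (0.13, SE 0.06). Cs, Dlst (the succinyltransferase of oxoglutarate dehydrogenase), Fh1 (fumarase) and Mdh2 had values between -0.07 and 0.13 in the 2 states and did not pass the test. Mdh1, the cytosolic malate dehydrogenase of the malate-aspartate shuttle, stood at 129 and 132 CPM with vehicle, 141 and 147 with MSDC, 140.2 and 133 with Poly(I:C) and vehicle, and 143 and 144 with Poly(I:C) and MSDC, with values of 0.14, SE 0.06 and 0.07, SE 0.06 that did not pass the test.

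**Figure D3:**
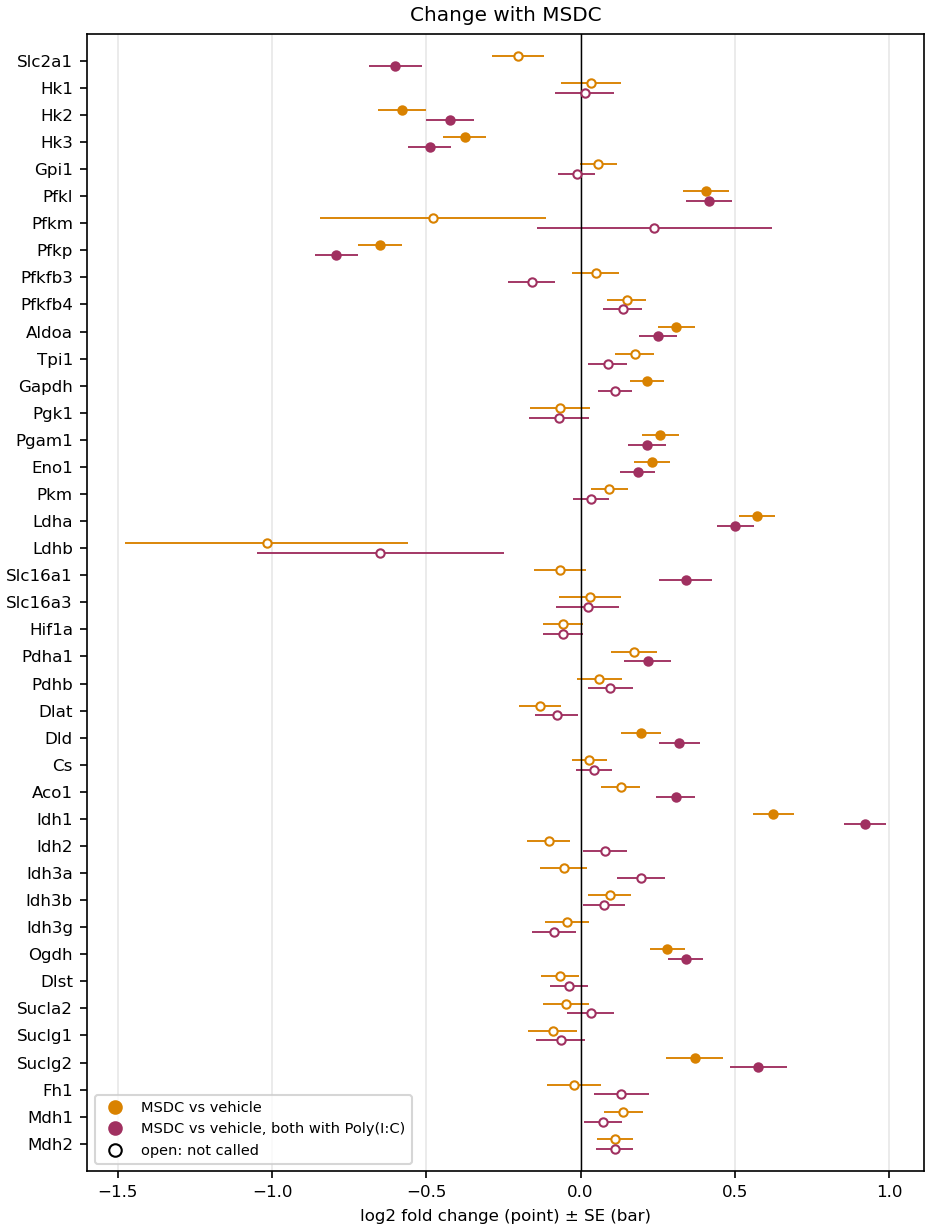
Log2 fold change with MSDC (x axis, point) and its SE (bar) for the 41 genes, without Poly(I:C) in orange and with it in purple; filled points passed the test and open ones did not. Hk2, Hk3 and Pfkp lie to the left and Pfkl, Ldha, Idh1, Ogdh and Suclg2 to the right in both states, and Slc2a1 reached -0.60 with Poly(I:C).

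In summed TPM, the 17 glycolytic genes held 13903 and 14280.0 in the vehicle libraries and 16278 and 15725 with MSDC, and 12391 and 13370.1 against 14257 and 14526 in stimulated cells. The 4 lactate genes held 962 and 978 against 1389 and 1339, and 856 and 926 against 1218 and 1306. The 15 genes of the TCA set held 2139 and 2134 against 2321 and 2256, and 1875 and 1883 against 2172 and 2193. Group means were 13.6 and 11.7% higher with MSDC for glycolysis, 40.6 and 41.6% for lactate and 7.11 and 16.1% for the TCA set, without and with Poly(I:C). These sums mostly follow their most abundant genes and do not show the falls of Hk2, Hk3 and Pfkp. Without Poly(I:C), mean Ldha went from 862 to 1257 TPM, and the 4 lactate genes from 970 to 1364. Idh1 went from 182 to 275 within a TCA set of 2137 to 2289, and Gapdh from 7093 to 8093 within a glycolysis sum of 14092 to 16001.

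The effect of Poly(I:C) itself on these genes was small. In vehicle-treated cells 3 of 41 rose and 7 fell, 7.32 and 17.1%, against 7.52 and 4.1% of all genes tested, with a median of -0.07 against 0.00 over all genes. The rises were near the share over all genes. They were Hk3 by 0.35, SE 0.07, adjusted p = 0.00304, Pfkp by 0.33, SE 0.07, adjusted p = 0.00404 and Pfkfb3 by 0.32, SE 0.08, adjusted p = 0.0103. Other genes of the early steps were not called, among them Hk1 (0.10, SE 0.10), Gpi1 (-0.13, SE 0.06), Pfkl (-0.09, SE 0.08) and Pfkfb4 (0.01, SE 0.06). Pfkfb3, the inducible kinase that makes fructose 2,6-bisphosphate, stood at 30.8 and 32.4 CPM with vehicle, 33.0 and 32.5 with MSDC, 39.4 and 39.6 with Poly(I:C) and vehicle, and 35.03 and 35.7 with Poly(I:C) and MSDC, with both libraries of Poly(I:C) and vehicle above the other 6. Its call was lost without either of those 2 libraries, and limma on log2(TPM + 1) called 0 of the 3 rises. Slc2a1 (0.02, SE 0.08), Hk2 (0.12, SE 0.08) and Ldha (-0.03, SE 0.06) did not pass the test.

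The genes that fell with Poly(I:C) in vehicle were both lactate transporters, Pgam1 and 4 of the TCA set. Slc16a1 fell by 0.39 on the log2 scale (SE 0.09, adjusted p = 0.00602) and Slc16a3 by 0.36 on the log2 scale (SE 0.10, adjusted p = 0.0289), and for each the stimulated vehicle libraries were below the unstimulated ones. Idh3a, the catalytic subunit of NAD-dependent isocitrate dehydrogenase, stood at 72.8 and 64.4 CPM with vehicle, 63.6 and 68.6 with MSDC, 53.1 and 55.2 with Poly(I:C) and vehicle, and 61.2 and 62.8 with Poly(I:C) and MSDC and fell by 0.34 on the log2 scale (SE 0.08, adjusted p = 0.00766). Ogdh fell by 0.24 on the log2 scale (SE 0.06, adjusted p = 0.0121), Aco1 by 0.24 on the log2 scale (SE 0.06, adjusted p = 0.0222), Idh1 by 0.24 on the log2 scale (SE 0.07, adjusted p = 0.0336) and Pgam1 by 0.20 on the log2 scale (SE 0.06, adjusted p = 0.0482). Leaving out replicate 1 of the stimulated vehicle libraries removed the calls of Slc16a1, Slc16a3 and Idh3a, and leaving out replicate 2 did not. The calls of Ogdh, Aco1, Idh1 and Pgam1 were lost when either library was left out. Both fits also called fewer falls over all genes, so these losses were not specific to the 7. No fall reversed over the 16 alternatives, with log2 fold changes between -0.50 for Slc16a3 and -0.14 for Pgam1. When only the 2 groups compared were fitted, 3 of the 7 were called. The call of Aco1 was also lost without vehicle replicate 1, and that of Pgam1 without that library or either MSDC library. Scaling by library totals alone gave 11 falls, and limma on log2(TPM + 1) gave 2. Over all genes these fits gave 867 and 458 falls, against 477 in the main fit.

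In MSDC-treated cells Poly(I:C) raised 0 of the 41 genes and lowered 4, which is 9.76%, against 4.82 and 1.5% of all genes tested. At an unadjusted p under 0.05, 3 were higher and 10 lower, but the share over all genes at that threshold was not counted. DESeq2 called 0 higher and 6 lower, and over all genes 544 higher and 217 lower. The 4 were Slc2a1 (-0.38, SE 0.09, adjusted p = 0.0119), Slc16a3 (-0.37, SE 0.10, adjusted p = 0.0398), Pgam1 (-0.24, SE 0.06, adjusted p = 0.0258) and Tpi1 (-0.24, SE 0.06, adjusted p = 0.0333). Each was lost without MSDC replicate 1 and without replicate 1 of Poly(I:C) with MSDC, and without MSDC replicate 2 the count was 1. The call of Tpi1 was also lost without replicate 2 of Poly(I:C) with MSDC, and limma on log2(TPM + 1) called 0 of the 4. Vehicle replicates 1 and 2 do not enter the contrast but do enter the shared spread. Leaving out either of them gave more calls in both directions, among the 41 genes and also over all genes tested. Of the 7 genes lowered in vehicle and the 4 lowered in MSDC, 2 were the same, Pgam1 and Slc16a3 (28.6 and 50% of the lists), against 22.4 and 61.5% over all genes tested. These 2 comparisons share no library.

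**Figure D4:**
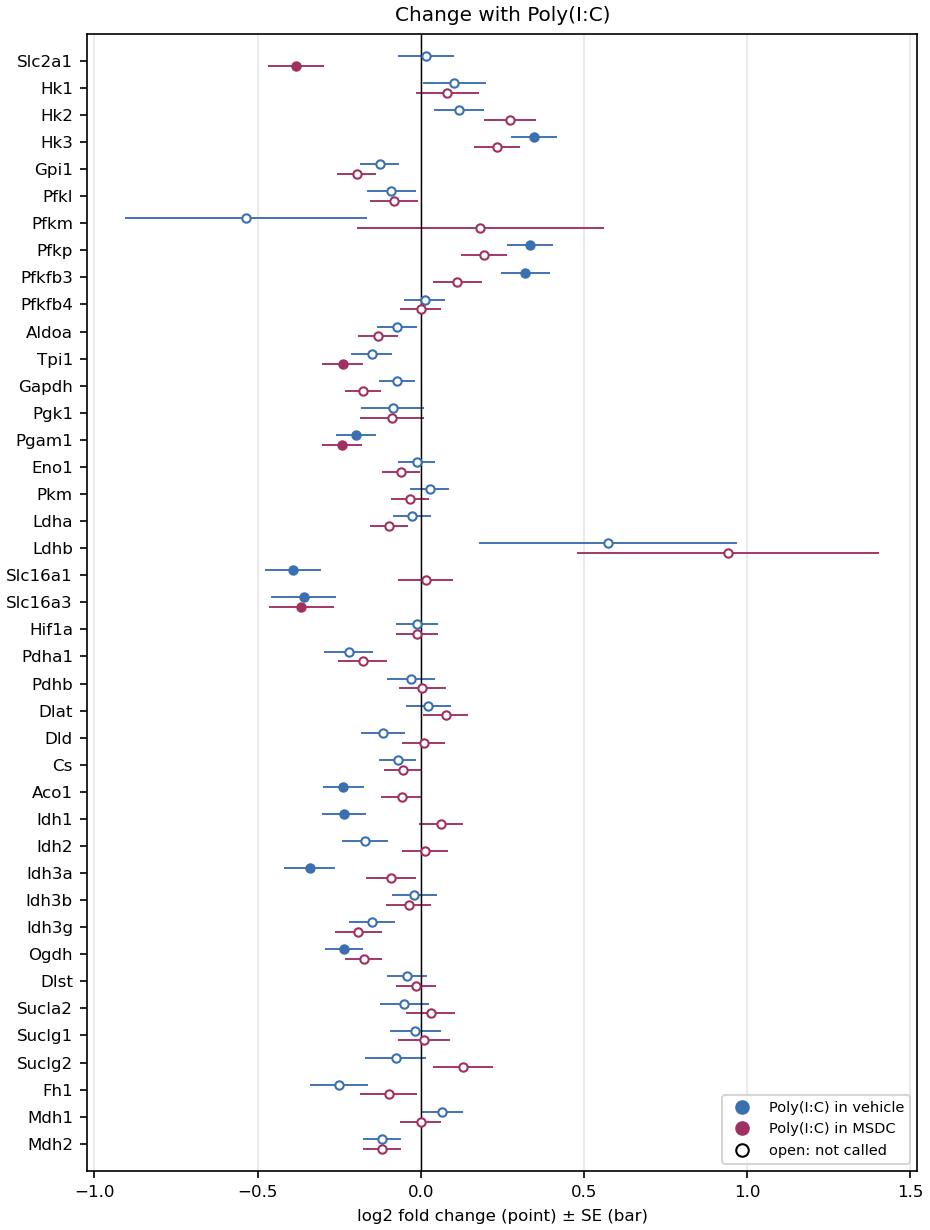
Log2 fold change with Poly(I:C) (x axis, point) and its SE (bar) for the 41 genes, in vehicle-treated cells in blue and in MSDC-treated cells in purple; filled points passed the test and open ones did not. Apart from the low-count genes Pfkm and Ldhb, the points lie between -0.39 and 0.35, with Hk3, Pfkp and Pfkfb3 called to the right in vehicle and the lactate transporter genes called to the left.

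The interaction asked whether the response to Poly(I:C) differed between MSDC and vehicle. It is signed, being positive where the log2 fold change with Poly(I:C) was higher in MSDC, whether as a larger rise or a smaller fall. Slc16a1, for example, had -0.39 in vehicle and 0.01 in MSDC, which gives a positive value. In edgeR's test 0 of 41 genes were called higher and 0 lower, against 0.12 and 0.103% of all genes tested, the smallest adjusted p being 0.396. DESeq2 and limma on log2(TPM + 1) also called 0. At an unadjusted p under 0.05 there were 4: Slc2a1 (-0.40, SE 0.12), Slc16a1 (0.41, SE 0.12), Idh1 (0.30, SE 0.09) and Idh3a (0.25, SE 0.11). The share over all genes at that threshold was not counted, so this number is not read as a result about the 41 genes. Without the filter on low counts Slc2a1 was called, with -0.40 and an adjusted p = 0.0344. That fit also called more genes overall in the table, 64 higher and 52 lower, against 14 and 12 in the main fit. The called changes of Slc2a1 and Slc16a1 in only some states are therefore not shown to differ between states by the fit used here.

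**Figure D5:**
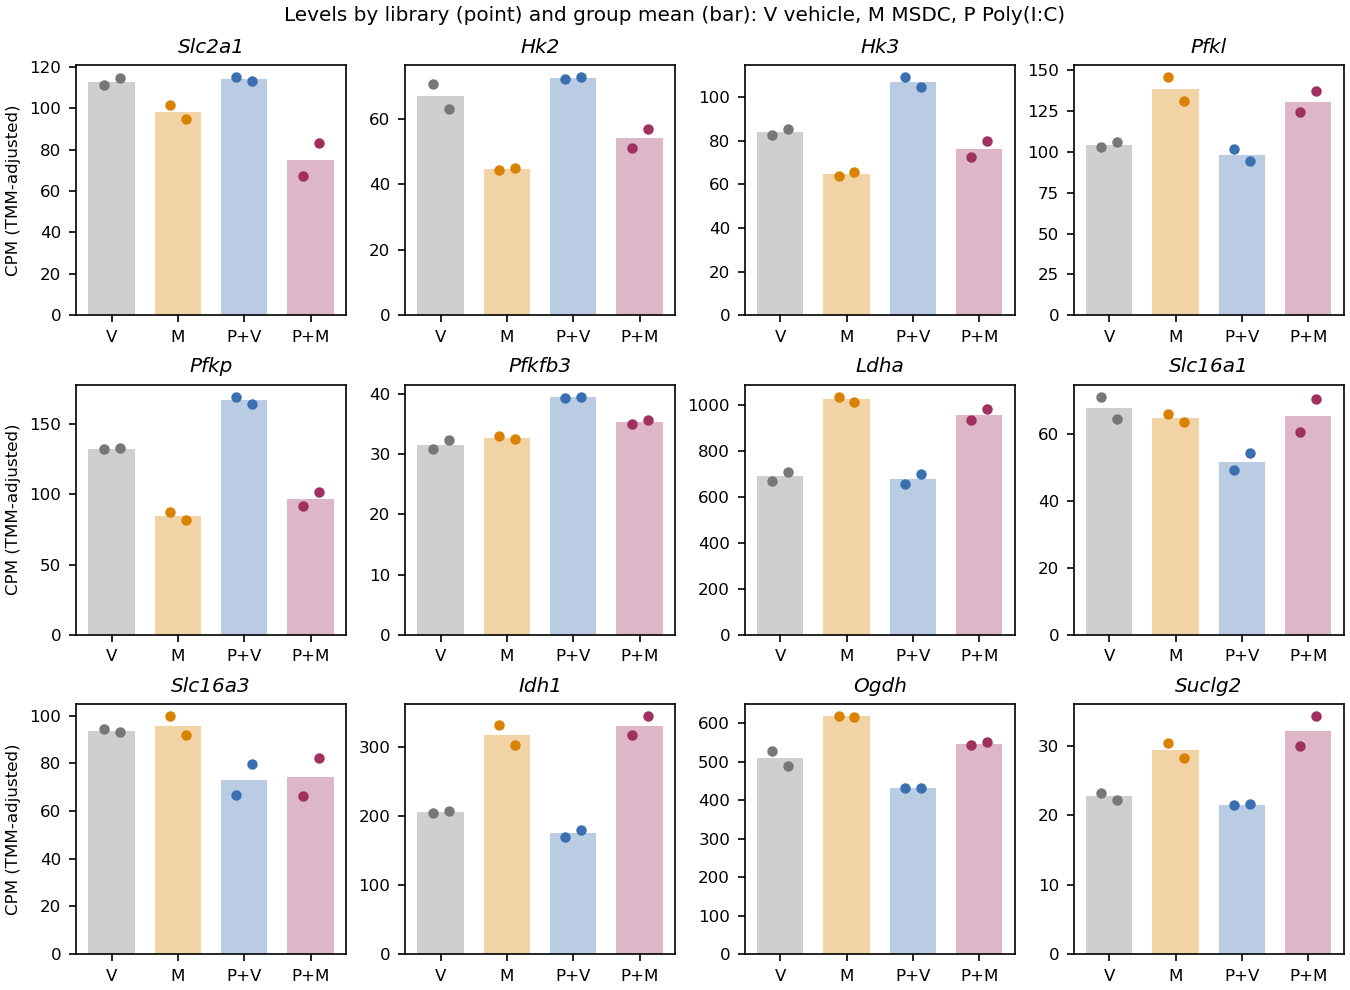
TMM-adjusted CPM (y axis, from 0) of 12 of the genes in the 4 groups; points are libraries and bars are group means. The MSDC groups are lower for Hk2, Hk3 and Pfkp and higher for Pfkl, Ldha and Idh1 whether or not Poly(I:C) was present.

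Further genes were read from lists that name them by pathway, and their counts stand beside 11.1% higher and 12.4% lower over all genes tested with MSDC alone, and 12.5 and 13.6% with Poly(I:C) present. Of 18 tested genes of hexose handling outside the 41, 5 rose and 2 fell with MSDC alone, and 6 and 2 with Poly(I:C) present, the falls being near the share over all genes. Gpd1, which diverts a glycolytic intermediate to glycerol 3-phosphate, went from 5.50 and 5.58 to 87.8 and 88.7 CPM (log2 fold change 3.99, SE 0.09) and the hexose transporter gene Slc2a6 from 37.3 and 36.2 to 9.57 and 10.6 CPM (-1.87, SE 0.09); with Poly(I:C) the values were 4.36 and -2.54. Aldoc (aldolase C) rose by 0.63 and 0.64. The pyruvate carrier gene Mpc2 rose by 2.01 and 1.97. Of 7 genes of the pentose phosphate pathway, the other route for glucose 6-phosphate and a source of NADPH, 5 rose with MSDC in each state and the other two did not pass the test: Taldo1 (transaldolase) by 0.39 and 0.55, Rpia (ribose 5-phosphate isomerase) by 0.40 and 0.48, Pgd (6-phosphogluconate dehydrogenase) by 0.32 and 0.33 and G6pdx, whose enzyme opens the pathway, by 0.30 and 0.19. The fifth was Rpe.

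Among 4 tested lactate partners, 1 rose and 1 fell with MSDC in each state. Emb, which encodes embigin, a chaperone of monocarboxylate transporters, fell by 1.17 (SE 0.08) and 1.13 (SE 0.08) on the log2 scale. Bsg (basigin, the chaperone of MCT1 and MCT4) rose by 0.22 with MSDC alone. Of 26 other genes of pyruvate dehydrogenase control and the TCA cycle, 7 rose and 4 fell with MSDC alone and 7 and 5 with Poly(I:C). Pdk4, a kinase that switches off pyruvate dehydrogenase, rose by 4.82, SE 0.27 and 4.28, SE 0.25 and stood at 0.408 and 0.363 CPM with vehicle. Slc25a1 (the mitochondrial citrate carrier) rose by 0.81 and 0.81, Pcx (pyruvate carboxylase) by 0.75 and 0.82 and Me1 (cytosolic malic enzyme, which makes NADPH) by 1.53 and 1.68. Acod1, which draws aconitate out of the cycle to make itaconate, rose with Poly(I:C) by 3.83 in vehicle and 2.29 in MSDC, and its interaction of -1.54, SE 0.17, adjusted p = 0.000622 was the only call of these lists there.

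In the HIF-1 system, 3 of 7 tested genes rose and 1 fell with MSDC alone, and 2 rose and 1 fell with Poly(I:C). Epas1 (HIF-2 alpha) rose by 0.38 and 0.73 with MSDC and fell by 0.68 and 0.33 on the log2 scale with Poly(I:C) in vehicle and in MSDC, and the von Hippel-Lindau gene Vhl fell by 0.39 and 0.33 with MSDC. Of 9 tested HIF-1 targets outside glycolysis, 2 rose and 1 fell with MSDC alone and 1 rose and 1 fell with Poly(I:C), against the same 11.1 and 12.4%, and 12.5 and 13.6%, over all genes, so that a single called gene of 9 is near that share. Mxi1 (a MYC antagonist) rose by 0.35 and 0.41 and Ndrg1 fell by 1.14 and 1.30. With Poly(I:C) in vehicle, P4ha1 (a collagen prolyl hydroxylase subunit) rose by 0.43 and Mxi1 fell by 0.37. Of the lists, with Poly(I:C) in vehicle and then in MSDC, where 7.52 and 4.1%, then 4.82 and 1.5%, of all genes rose and fell, hexose handling had 1 rise and 2 falls, then 0 and 2, the pentose phosphate pathway 0 and 2, then 0 and 0, the lactate partners 0 and 1, then 0 and 0, the HIF-1 system 0 and 2, then 0 and 1, the HIF-1 targets 1 and 1 in each state, and the pyruvate dehydrogenase and TCA list 2 and 4, then 1 and 2, with Pdk1 falling by 0.64 and 0.38.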

How the data were processed

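Bulk RNA-seq libraries of 8 mouse alveolar macrophage samples were grouped by treatment from the labels. The table the authors deposited gives, per the file headers, an expected count, a TPM and an FPKM value per gene and library. TopHat2 2.1.1, Bowtie2 2.3.4 and Cuffdiff appear, without roles, in the submitters' processing notes, and which tool made the counts was not given there. The deposited FPKM values were used only to repeat the isoenzyme shares, and the deposited TPM values for levels, shares and limma. Estimated counts were rounded to whole numbers, since 5.95 to 7.19% of values in a library were not whole, filtered with filterByExpr and scaled by TMM. All 4 groups were fitted together with edgeR 4.0.16 (quasi-likelihood test, R 4.3.3), and p-values were adjusted by Benjamini-Hochberg over 11621 genes, with a threshold of 0.05. The fit had 4 residual degrees of freedom. Scripts were tested on simulated data.

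The alternatives were DESeq2 1.42.0, DESeq2 size factors, library totals alone, no filter on low counts, limma 3.58.1 on log2(TPM + 1) and log2(TPM + 0.1), only the groups compared, a replicate block, and leaving out each library. There were 0 unused sample columns. Promoters are RefSeq sequences of GRCm38.p6, and 40 of 41 genes matched by gene identifier. The genes and lists were chosen with earlier results of these data known. Values per library are given for genes called with a log2 fold change of at least 0.5 in size and for Slc2a1, Hk2, Pfkfb3, Gapdh, Ldha, Slc16a3, Hif1a, Pdha1, Idh1 and Mdh1. Those of Hk3, Pfkl, Slc16a1, Dld, Idh3a and Ogdh were added after their values were seen, as was Rpe. From each list up to 4 called genes with the smallest p were eligible in each comparison.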

Additional observations from a re-analysis of the deposited data

How the results depend on the processing

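Over 16 alternatives, 17 of the 43 calls of single genes were kept in all of them and 0 reversed: 6 of 13 with MSDC alone, 11 of 16 with MSDC and Poly(I:C), 0 of 10 with Poly(I:C) in vehicle and 0 of 4 with Poly(I:C) in MSDC. The main fit called, over all genes, 874 higher and 477 lower with Poly(I:C) in vehicle, and 560 and 174 in MSDC. It called 1294 higher with MSDC alone and 1450 with MSDC and Poly(I:C). With limma on log2(TPM + 1), Poly(I:C) in vehicle gave 0 higher and 2 lower genes, Poly(I:C) in MSDC 0 lower, and MSDC alone 5 higher. Over all genes the counts were 570 and 458, 73, and 923 in the same order. With log2(TPM + 0.1), Poly(I:C) in vehicle gave 0 higher and 0 lower, Poly(I:C) in MSDC 0 lower, MSDC alone 4 higher, and MSDC with Poly(I:C) 7 higher. All genes gave 481 and 299, 45, 824 and 1203 in that order. Library totals alone gave 11 lower with Poly(I:C) in vehicle and 7 lower in MSDC, and 867 and 250 lower over all genes. Fitting only the groups compared gave 3 lower in vehicle, and 2 higher and 8 lower in MSDC. Over all genes that fit gave 256 lower in vehicle, and 753 higher and 429 lower in MSDC. Without the filter on low counts, 1 gene was higher with Poly(I:C) in MSDC and 1 was lower in the interaction, against 686 and 52 over all genes. The cause was not tested. Leaving out each library gave 2 to 3 higher and 0 to 8 lower with Poly(I:C) in vehicle, 0 to 2 and 0 to 8 in MSDC, 5 to 11 and 3 to 4 with MSDC alone, 7 to 13 and 4 to 4 with MSDC and Poly(I:C), and 0 to 0 in the interaction. The rises with MSDC alone were fewest without MSDC replicate 1, and those with MSDC and Poly(I:C) without replicate 2 of both agents. In these fits fewer rises were called over all genes as well. Deviations of libraries with the same replicate number were not correlated between groups (correlations between -0.0262 and 0.034). Noise in single genes can hide a shared animal or day, so pairing is not excluded. With a replicate block the counts higher and lower were 3 and 6, 0 and 4, 9 and 3, 11 and 4, and 0 and 0, in the order Poly(I:C) in vehicle, in MSDC, MSDC alone, MSDC with Poly(I:C) and interaction. Over all genes the block gave 860 and 440, 543 and 149, 1232 and 1388, 1406 and 1535, and 16 and 8 in that order. Low counts limit Pfkm and Ldhb.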
